A study of Mus musculus with 6 samples.

Results

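Genes of glucose uptake and of glycolysis were followed through the nuclei of subcutaneous TC1 tumors. They were chosen by name, 10 of the 22623 genes with a molecule counted in the data: the glucose transporters Slc2a1 and Slc2a3, the hexokinases Hk1, Hk2 and Hk3, the phosphofructokinase subunits Pfkl, Pfkm and Pfkp, the aldolase Aldoa and the pyruvate kinase Pkm. Macrophage-like nuclei held Hk2 and Hk3 at higher levels than tumor-like nuclei in all 6 libraries, and Pfkm at a lower level. T/NK-like nuclei held more Slc2a3 and Pfkp than tumor-like nuclei, and less Hk2 and Hk3 than macrophage-like nuclei. None of the 10 genes differed between KO and CO past the threshold in a class where it could be tested. That was 10 genes in tumor-like, 9 in macrophage-like and 2 in T/NK-like nuclei.

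Glucose enters cells through facilitative transporters, of which Slc2a1 (GLUT1) is found in most tissues and Slc2a3 (GLUT3) is a high-affinity form of neurons and many leukocytes. Hexokinases then trap glucose as glucose 6-phosphate, with Hk1 as the widely expressed form, Hk2 as an inducible form common in tumors and muscle, and Hk3 as a form of myeloid cells. Phosphofructokinase-1 is a tetramer of liver (Pfkl), muscle (Pfkm) and platelet (Pfkp) subunits and commits the sugar to glycolysis, aldolase A splits it, and pyruvate kinase makes pyruvate and ATP at the last step. Tumor cells and activated immune cells are both known for high glucose use, and several of these genes are known targets of hypoxia-inducible factors.

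The nuclei came from 6 tumors, each 1 library: 3 from control (CO) mice given vehicle and 3 from knockout (KO) mice given tamoxifen for 5 days from 8 weeks of age. All mice carried MCT2loxP/loxP and a Cre transgene that tamoxifen switches on throughout the body and whose promoter is not named in the sources used here, and MCT2 is the monocarboxylate transporter encoded by Slc16a7. TC1 cells, a mouse lung tumor line, were injected under the skin 2 days after treatment and grew for 24 days, so the deletion concerned host cells and not tumor cells. The mice were male, no tamoxifen-treated group without Cre was among these libraries, and each library is taken as 1 mouse, as the labels number them by replicate.

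The gene targeted by the deletion was checked first. Slc16a7 was counted with 123, 160 and 165 UMIs (unique molecules) in the libraries CO1 to CO3, against 261, 106 and 350 in KO1 to KO3. Macrophage-like nuclei held 721 of these, at 103, 91.5 and 205 CPM (counts scaled to the size of the sum) in CO1 to CO3 and at 125, 174 and 177 CPM in KO1 to KO3. The level was therefore not lower in the libraries labelled KO, and whether the counted part of the transcript lies in the deleted stretch is not given in the sources used here, so each difference between KO and CO below is one between libraries so labelled. The labels give the tissue as lung, and of 8 lung epithelium markers 5, Sftpc among them, had no UMI in any library.

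The libraries held 13252572 to 22057084 UMIs over 18865 barcodes, of which 61 occurred in more than 1 library. After limits on genes per nucleus, mitochondrial share and doublets, 17493 nuclei were kept and 12614 were assigned by marker counts: 8319 tumor-like, 3874 macrophage-like and 421 T/NK-like, with 31 to 108 T/NK-like nuclei per library. The median depth was 1955 to 7681.5 UMIs in tumor-like, 1140.5 to 1520 UMIs in macrophage-like and 857 to 957 UMIs in T/NK-like nuclei. The summed markers kept out of the assignment were highest in their own class in every library, although Crabp1 and Gpm6b, of the tumor list, reached 190 and 163 CPM in a T/NK-like library against at most 124 and 79.1 CPM in tumor-like ones, and Itgam, of the macrophage list, had no UMI in any class. RNA of other classes was present in each. The tumor markers used for the assignment stood at 3.61 to 11.7% of their tumor-like level in macrophage-like and at 3.47 to 16.7% in T/NK-like nuclei, highest in KO2 and KO3. The tumor markers kept out of it, which the assignment does not hold down, stood at 16.5 to 20.8% in macrophage-like nuclei, highest in CO1, and at 23.9 to 40.1% in T/NK-like nuclei, highest in KO3. In tumor-like nuclei the macrophage markers stood at 0.759 to 2.38% of their own level (used for the assignment) and at 1.87 to 6.94% (kept out of it). Ribosomal-protein transcripts took 1.44, 1.23 and 0.853% of tumor-like UMIs in CO1 to CO3 and 1.43, 0.305 and 0.589% in KO1 to KO3, so KO2 and KO3 stood lowest.

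The 10 genes lie on 7 chromosomes of the mouse genome build GRCm38, and all counts are sums over a whole gene, so the splice forms of Pkm (PKM1 and PKM2) cannot be told apart. Slc2a1 lies at chr4:119108711-119137983 on the plus strand and Slc2a3 at chr6:122727809-122801640 on the minus strand. The hexokinases lie on the minus strand at chr10:62268855-62379908 (Hk1), chr6:82725025-82774454 (Hk2) and chr13:55005985-55021385 (Hk3). The phosphofructokinases lie at chr10:77986947-78010083, minus strand (Pfkl), chr15:98092589-98132451, plus strand (Pfkm), and chr13:6579768-6648777, minus strand (Pfkp). Aldoa lies at chr7:126795234-126800751 on the minus strand and Pkm at chr9:59656368-59679375 on the plus strand.

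Promoter sequences are shown for Slc2a1 and Pfkp, which were called in the split of tumor-like nuclei by hypoxia markers described below. Hk2, not called there, is shown as a hexokinase beside Hk3. RefSeq windows of 250 bases before a start site (GRCm38.p6) matched 9 of the 10 genes, all but Slc2a3. They were searched on both strands for the core of the hypoxia response element, ACGTG or GCGTG, which is bound by hypoxia-inducible factors. Capitals mark each match, and a match read on the other strand appears as CACGT or CACGC.
Slc2a1, chr4:119108495-119108744, plus strand, 2 matches, the last bases within the GENCODE first exon: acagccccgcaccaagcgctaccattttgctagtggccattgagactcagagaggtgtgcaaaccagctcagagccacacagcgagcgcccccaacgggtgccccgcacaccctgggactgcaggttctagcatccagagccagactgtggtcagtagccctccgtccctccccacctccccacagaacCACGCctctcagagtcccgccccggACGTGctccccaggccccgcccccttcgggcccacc
Hk2, chr6:82774455-82774704, minus strand, 2 matches: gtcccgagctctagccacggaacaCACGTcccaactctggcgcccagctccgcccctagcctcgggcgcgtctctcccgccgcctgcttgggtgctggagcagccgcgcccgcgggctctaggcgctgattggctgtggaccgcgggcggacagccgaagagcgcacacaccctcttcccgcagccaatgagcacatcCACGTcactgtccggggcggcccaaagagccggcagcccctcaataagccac
Pfkp, chr13:6648772-6649021, minus strand, 3 matches: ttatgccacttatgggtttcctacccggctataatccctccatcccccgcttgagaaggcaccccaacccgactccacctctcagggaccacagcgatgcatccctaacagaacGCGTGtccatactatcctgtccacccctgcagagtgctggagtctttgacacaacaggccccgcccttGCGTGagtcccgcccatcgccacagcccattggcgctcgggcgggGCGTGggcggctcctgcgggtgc
The window of Pfkl, also called in that split, held 1 match and lies within the longer GENCODE model of that gene. Hk1, not called there, had 1 window with 3 matches and 1 with 0. At least 1 window of each of the 9 genes held a match, in 12 of their 16 windows, against 38.6% of all 32851 windows of this length. The window of Hk3 is shown for GAGGAA, the core bound by the myeloid factor PU.1, which reads TTCCTC on the other strand.
Hk3, chr13:55021386-55021635, minus strand, 1 match: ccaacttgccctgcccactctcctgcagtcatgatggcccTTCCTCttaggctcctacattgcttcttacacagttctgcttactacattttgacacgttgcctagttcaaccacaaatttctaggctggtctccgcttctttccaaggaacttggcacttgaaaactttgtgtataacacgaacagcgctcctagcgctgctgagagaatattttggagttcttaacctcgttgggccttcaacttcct
GAGGAA was in 7 of the 16 windows, from 4 of the genes, against 23.3% of all windows. The 4 genes were Hk1, Hk3, Pfkm and Aldoa, of which Pfkm was lower in macrophage-like than in tumor-like nuclei. Some windows of Pfkm and of Aldoa overlap, so the counts of windows for either motif hold some matches more than once. Such matches describe these letters only and show no binding.

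Isozyme choice was compared between the 3 classes first, on counts summed per class and library (18 sums), as CPM, a gene's counts scaled to the size of the sum. A gene was called where the fold change was at least 0.58 on the log2 scale in either direction and the adjusted p at most 0.05 over all 11123 genes tested. Between macrophage-like and tumor-like nuclei 52.8% of all genes were called, 23.2% as higher and 29.6% as lower, and 4 of the 10 genes were called, 3 as higher and 1 as lower, so the number called was no larger a share than among all genes and the values of each gene are what is described here. Between T/NK-like and tumor-like nuclei 14.5% of all genes were called as higher and 37.7% in either direction, and 5 of the 10 genes were called, all as higher. Between T/NK-like and macrophage-like nuclei 8.55% of all genes were called as higher and 14.8% as lower (23.3% in all), and of the 10 genes 3 were called as higher and 2 as lower. The median log2 fold change over all genes was −0.09, −0.24 and −0.09 in these comparisons, and with RLE scaling −0.07, −0.11 and 0.01.

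**Figure D1:**
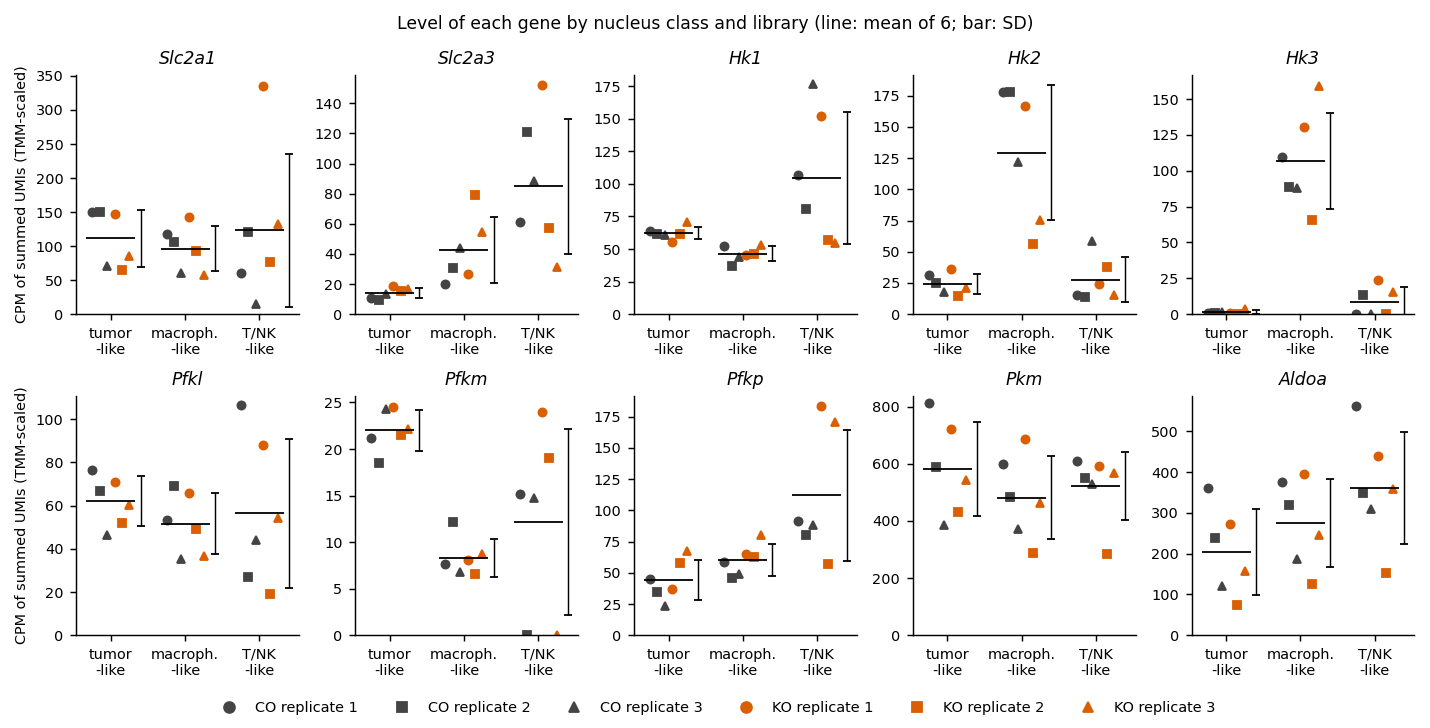
Level of each gene (y axis, CPM of summed UMIs) in tumor-like, macrophage-like and T/NK-like nuclei (x axis), 1 point per library with the mean and SD of 6. Hk2 and Hk3 are highest in macrophage-like nuclei in every library, and Slc2a3 is lowest in tumor-like nuclei in every library.

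Of the glucose transporters, Slc2a1 was called in none of the 3 pairs of classes and Slc2a3 in all of them. Slc2a1 stood at 151, 151 and 71.0 CPM in CO1 to CO3 and at 148, 64.3 and 85.0 CPM in KO1 to KO3 in tumor-like nuclei. Macrophage-like libraries held it at 118, 106 and 60.9 CPM in CO and at 143, 92.1 and 57.2 CPM in KO. The libraries overlapped almost fully, and the log2 fold change of macrophage-like over tumor-like nuclei was −0.25 (95% interval −0.60 to 0.09, adjusted p = 0.18 in edgeR's quasi-likelihood test). T/NK-like nuclei ranged from 14.7 CPM (1 UMI) to 336 CPM (42 UMIs), with a mean of 123 ± 112 CPM (SD, n = 6), and no call was made against either class.

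Slc2a3 stood at 10.6, 9.15 and 13.7 CPM in CO and at 18.5, 15.6 and 16.8 CPM in KO in tumor-like nuclei. Macrophage-like nuclei held 20.4, 30.8 and 43.9 CPM in CO and 26.9, 79.0 and 54.3 CPM in KO. In the T/NK-like class the libraries held 60.9, 121 and 88.5 CPM in CO and 152, 57.0 and 31.1 CPM in KO, from 3 to 19 UMIs a library. Every macrophage-like and every T/NK-like library lay above every tumor-like library, and groups did not overlap for 37.8% and 20% of all genes in these comparisons. Slc2a3 was thus 2.76-fold higher in macrophage-like than in tumor-like nuclei (42.6 ± 21.6 vs. 14.0 ± 3.61 CPM, log2 1.47, SE 0.22, adjusted p = 1.73e-06, edgeR) and 6.10-fold higher in T/NK-like nuclei (85.0 ± 44.8 CPM, log2 2.61, SE 0.39, adjusted p = 3.72e-06, edgeR). The T/NK-like libraries were also called above the macrophage-like ones (log2 1.14, SE 0.37, adjusted p = 0.0226, edgeR), but 4 of 6 libraries had this direction and the call was lost when CO1, CO2, CO3 or KO1 was left out, at the least with log2 0.67 and adjusted p = 0.276 without KO1.

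The hexokinases differed most. Hk1 differed least between the first pair of classes: it stood at 55.7 to 70.7 CPM in tumor-like and 37.3 to 53.3 CPM in macrophage-like libraries, which did not overlap, yet its log2 fold change of −0.44 (SE 0.14, adjusted p = 0.00943, edgeR) was under the size threshold. The T/NK-like libraries held Hk1 at 107, 80.5 and 177 CPM in CO and at 152, 57.0 and 54.4 CPM in KO. All of these lay above the macrophage-like libraries, as for 12.7% of all genes (log2 1.18, SE 0.26, adjusted p = 0.000959, edgeR), and the call was lost with nuclei thinned to 1000 UMIs (log2 0.94, adjusted p = 0.0612, edgeR). Against tumor-like nuclei the T/NK-like level was called higher (105 ± 50.7 vs. 62.4 ± 4.87 CPM, log2 0.75, SE 0.24, adjusted p = 0.015, edgeR) in 4 of 6 libraries, and that call was lost without CO3 (adjusted p = 0.0865), without KO1 (adjusted p = 0.109) or with thinned nuclei (log2 0.60, adjusted p = 0.2).

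Hk2, the inducible hexokinase, stood at 31.2, 24.7 and 17.9 CPM in CO and at 35.9, 14.3 and 20.6 CPM in KO in tumor-like nuclei. Macrophage-like nuclei held 178, 178 and 122 CPM in CO and 167, 55.9 and 75.7 CPM in KO. Even the lowest macrophage-like library, KO2, lay above the highest tumor-like library. The difference was 5.30-fold (129 ± 53.9 vs. 24.1 ± 8.20 CPM, log2 2.40, SE 0.14, adjusted p = 1.11e-14, edgeR). The tumor-like level was 18.6% of the macrophage-like level, above the 1.87 to 6.94% at which the macrophage markers kept out of the assignment were found in tumor-like nuclei. T/NK-like nuclei held 1 to 4 UMIs of Hk2 a library, which gave 27.5 ± 17.9 CPM, lower than macrophage-like nuclei (log2 −2.37, SE 0.36, adjusted p = 5.76e-06, edgeR) and with no call against tumor-like nuclei (log2 0.03, 95% interval −0.88 to 0.95). That T/NK-like level was 21.3% of the macrophage-like level. The macrophage markers kept out of the assignment stood in T/NK-like nuclei at 7.09 to 36.6% of theirs, and the part of such RNA in these counts was not tested.

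Hk3, the myeloid hexokinase, had the largest difference among the 10 genes. Macrophage-like libraries held it at 109, 88.7 and 87.9 CPM in CO and at 131, 65.8 and 159 CPM in KO. Tumor-like nuclei held 0.659, 0.617 and 1.54 CPM in CO and 1.05, 0.377 and 3.72 CPM in KO, from 4 to 24 UMIs a library. The macrophage-like level was 89.8-fold higher (107 ± 33.7 vs. 1.33 ± 1.24 CPM, log2 6.49, SE 0.21, adjusted p = 5.87e-20, edgeR). The tumor-like level was 1.24% of the macrophage-like level, within the 0.759 to 2.38% of the macrophage markers used for the assignment and below the 1.87 to 6.94% of those kept out of it, and the part of such RNA in these counts was not tested. In T/NK-like nuclei CO1 to CO3 had 0, 1 and 0 UMIs and KO1 to KO3 had 3, 0 and 2, where a count of 0 allowed up to 45.7 CPM in CO1, 44.2 CPM in CO3 and 57.0 CPM in KO2 (3 UMIs). The T/NK-like level was lower than the macrophage-like level in every library (log2 −3.38, SE 0.47, adjusted p = 2.17e-06, edgeR). It was 8.25% of the macrophage-like level, while macrophage markers kept out of the assignment stood in T/NK-like nuclei at 7.09 to 36.6% of theirs, so the call of Hk3 above tumor-like nuclei (log2 3.11, SE 0.92, adjusted p = 0.00781, edgeR) rested on 6 UMIs at a level within that range, and was lost without KO1 (adjusted p = 0.117) or with a stricter filter on nuclei (adjusted p = 0.0543).

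The phosphofructokinase subunits differed in Pfkm and Pfkp. Pfkl, the liver subunit, stood at 46.5 to 76.7 CPM in tumor-like, 35.5 to 69.1 CPM in macrophage-like and 19.0 to 107 CPM in T/NK-like libraries, with no call between any of the classes. Pfkm, the muscle subunit, stood at 21.2, 18.5 and 24.3 CPM in CO and at 24.5, 21.5 and 22.2 CPM in KO in tumor-like nuclei. Macrophage-like nuclei held 7.63, 12.1 and 6.76 CPM in CO and 8.07, 6.58 and 8.73 CPM in KO, from 2 to 13 UMIs a library. The ranges did not overlap, and Pfkm was 2.53-fold lower in macrophage-like nuclei (8.32 ± 2.03 vs. 22.0 ± 2.22 CPM, log2 −1.34, SE 0.23, adjusted p = 1.12e-05, edgeR), at 37.8% of the tumor-like level beside the 16.5 to 20.8% of the tumor markers kept out of the assignment. From 0 to 3 UMIs of Pfkm were counted in T/NK-like nuclei of a library, and the difference from tumor-like nuclei (log2 −0.92, adjusted p = 0.183, edgeR) was not called.

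Pfkp, the platelet subunit, stood at 45.5, 34.6 and 23.8 CPM in CO and at 36.9, 57.5 and 67.8 CPM in KO in tumor-like nuclei. The T/NK-like level was 91.3, 80.5 and 88.5 CPM in CO and 184, 57.0 and 171 CPM in KO. KO2 alone had no higher level in T/NK-like than in tumor-like nuclei, and the difference was 2.78-fold (112 ± 52.2 vs. 44.3 ± 16.1 CPM, log2 1.47, SE 0.24, adjusted p = 1.34e-05, edgeR). Macrophage-like nuclei lay between, at 45.7 to 80.5 CPM. They were higher than tumor-like nuclei in 6 of 6 libraries by a log2 fold change of 0.48 (SE 0.14, adjusted p = 0.00405, edgeR), under the size threshold, and lower than T/NK-like nuclei (log2 of T/NK-like over macrophage-like 0.99, SE 0.24, adjusted p = 0.00263, edgeR).

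Aldoa and Pkm, which have no sister gene in the group, were the most abundant of the 10 per exon kilobase in each class. Aldoa stood at 204 ± 106 CPM in tumor-like, 275 ± 108 CPM in macrophage-like and 362 ± 137 CPM in T/NK-like nuclei (SD, n = 6). Within each of the 6 libraries the order was the same, with tumor-like lowest and T/NK-like highest, while the ranges over libraries overlapped. The T/NK-like level was called above the tumor-like level (log2 0.88, SE 0.15, adjusted p = 2.62e-05, edgeR), and with all nuclei thinned to 1000 UMIs the log2 fold change was 0.32 (adjusted p = 0.331) and no longer called. Macrophage-like nuclei exceeded tumor-like nuclei by log2 0.49 (SE 0.12, adjusted p = 0.000607, edgeR), under the size threshold. Pkm stood at 581 ± 165, 482 ± 145 and 522 ± 119.5 CPM in the 3 classes, with no call between them. Of the 11 rows with these 10 symbols, a second row named Aldoa held 189 UMIs over all nuclei against 20627 in the first and was left out of the levels.

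Within a family the levels were also set side by side per kilobase of exon, since genes differ in length. In tumor-like nuclei Hk1 made up 63.1 ± 8.03%, Hk2 33.9 ± 8.70% and Hk3 3.00 ± 2.63% of hexokinase transcripts per exon kilobase (SD over 6 libraries). In macrophage-like nuclei Hk1 made up 10.3 ± 3.30%, Hk2 38.0 ± 11.3% and Hk3 51.8 ± 9.89%. In T/NK-like nuclei Hk1 again led, with 62.4 ± 12.5%, before Hk2 with 24.4 ± 13.7% and Hk3 with 13.1 ± 14.7%, from 73 UMIs of all 3 genes. On this scale Hk1 held the largest share in every tumor-like and every T/NK-like library, whereas it held the smallest in every macrophage-like library. Between Hk2 and Hk3 in macrophage-like nuclei the order varied: Hk3 led in CO3, KO1, KO2 and KO3, Hk2 led in CO2, and in CO1 they stood at 45.4% (Hk2) and 45.3% (Hk3). Divided by the span of the whole gene instead, as reads from introns would ask for, the macrophage-like shares were 69.3% for Hk3, 26.3% for Hk2 and 4.44% for Hk1, with Hk1 again last in 6 of 6 libraries. The first place of Hk1 in the other classes did not hold on that scale. Per gene span Hk2 led in tumor-like nuclei of CO1 (50.6% against 46.0% for Hk1) and of KO1 (56.1% against 38.7%), and in T/NK-like nuclei Hk1 led in 2 libraries, Hk2 in 1 and Hk3 in 3. In the T/NK-like class Hk3 led on 1 UMI in CO2, 3 in KO1 and 2 in KO3, and Hk2 on 2 UMIs in KO2, too few to order these genes. Which scale fits cannot be told, since whether introns were counted is not given in the sources used here.

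**Figure D2:**
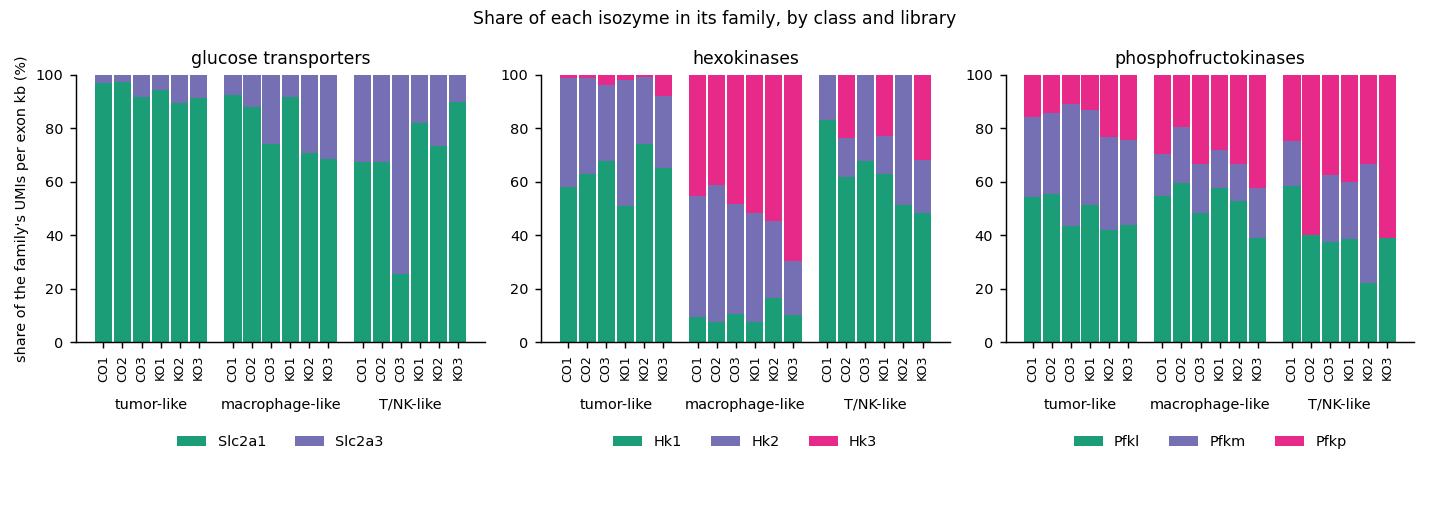
Share of each gene in its family's UMIs per exon kilobase (y axis, %), for the glucose transporters, hexokinases and phosphofructokinases in each class and library (x axis). Hk1 takes 50.9 to 74.2% in tumor-like and 7.50 to 16.5% in macrophage-like libraries.

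Among the transporters Slc2a1 made up 93.4 ± 3.13% of the pair per exon kilobase in tumor-like, 80.8 ± 10.9% in macrophage-like and 67.6 ± 22.3% in T/NK-like nuclei. The order of the phosphofructokinases depended on the scale in each class. In tumor-like nuclei Pfkl made up 48.3 ± 5.92%, Pfkm 34.7 ± 5.68% and Pfkp 17.0 ± 5.48% per exon kilobase. Pfkl was also first per gene span (69.0%) and by UMIs without division by length (48.7%), but Pfkp then stood before Pfkm, at 16.4% against 14.5% per span and 33.8% against 17.6% by UMIs. In macrophage-like nuclei Pfkl made up 52.0 ± 7.42%, Pfkp 31.1 ± 7.48% and Pfkm 16.9 ± 2.77% per exon kilobase, and by UMIs Pfkp was first with 50.4% before Pfkl with 42.7%. Pfkm had the lowest mean share of macrophage-like and T/NK-like nuclei on all 3 scales. Among T/NK-like nuclei Pfkp took 42.8 ± 14.6%, Pfkl 39.3 ± 11.5% and Pfkm 17.9 ± 16.8% per exon kilobase, whereas by UMIs Pfkp took 62.6 ± 12.1% and Pfkl 29.8 ± 10.6%, and per gene span Pfkl (52.9 ± 11.3%) stood before Pfkp (39.2 ± 11.1%).

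The ratio of one isozyme to another does not depend on gene length when it is compared between classes, and 7 such log2 ratios were tested in the 3 pairs of classes with an exact sign-flip permutation test over the 6 libraries, two-sided. Of the 21 tests 13 reached the smallest p that 6 libraries allow, 0.03125, which over 21 tests gave an adjusted p of 0.0505, so none passed 0.05. All 7 ratios of macrophage-like against tumor-like nuclei were among them, each with the same sign in 6 of 6 libraries. The differences in log2 ratio were 7.03 ± 0.84 for Hk3 over Hk1, 2.79 ± 0.51 for Hk2 over Hk1, 4.24 ± 0.87 for Hk3 over Hk2 and 1.70 ± 0.64 for Slc2a3 over Slc2a1 (SD, n = 6). For the phosphofructokinases they were 0.79 ± 0.45 for Pfkp over Pfkl, −1.03 ± 0.39 for Pfkm over Pfkl and 1.82 ± 0.64 for Pfkp over Pfkm. T/NK-like nuclei differed from tumor-like nuclei in 6 of 6 libraries by 2.71 ± 1.63 for Slc2a3 over Slc2a1 and by 1.53 ± 0.65 for Pfkp over Pfkl, and from macrophage-like nuclei by −3.09 ± 1.46 for Hk2 over Hk1.

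Of 34 other genes of the pathway, 18 were measured well enough for the class tests. Between macrophage-like and tumor-like nuclei 5 were called higher and 5 lower. Highest were Pfkfb3 (141 ± 28.4 vs. 10.6 ± 3.77 CPM, log2 3.77) and Pfkfb4 (110.2 ± 23.6 vs. 24.9 ± 3.48 CPM, log2 2.15), which make the fructose 2,6-bisphosphate that activates phosphofructokinase-1, with Slc2a9, a urate transporter of the same family (log2 2.71), and Tigar, a fructose bisphosphatase (log2 1.97). Lowest were Slc2a13, a myo-inositol transporter (log2 −3.24), and the neuronal enolase Eno2 (log2 −3.09), all with adjusted p from 8.02e-18 to 2.04e-05 (edgeR). T/NK-like nuclei held more Pfkfb3 (157 ± 73.1 CPM, log2 3.88) and Slc2a9 (log2 2.50) and less Eno2 (log2 −2.57) and Pfkfb4 (log2 −1.68) than tumor-like nuclei, and less Pfkfb4 than macrophage-like nuclei (5.22 ± 9.42 CPM, log2 −3.83). The shared steps Gpi1, Tpi1, Pgk1, Pgam1, Eno1 and Ldha were called in none of the 3 pairs.

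The genes whose log2 level over the 18 sums was most like that of a member, among 11123, were found by Pearson's r, as a description over sums that share libraries. For Hk3 they were P2ry12 (r = 0.98), Clec4a3 (r = 0.97) and Fcgr3 (r = 0.97), and for Hk2 Fcrlb (r = 0.92), Ifi204 (r = 0.90) and Gatm (r = 0.90). Slc2a3 was most like Cabcoco1 (r = 0.90), Cysltr2 (r = 0.89) and Traf3ip3 (r = 0.89). Slc2a1 was most like Malsu1 (r = 0.87), Mesd (r = 0.86) and Sap30l (r = 0.86).

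KO libraries were then compared with CO libraries within each class, 3 against 3, to ask whether deletion of MCT2 in the host went with another choice of isozyme. In tumor-like nuclei all 10 genes could be tested, in macrophage-like nuclei all but Pfkm, and in T/NK-like nuclei only Pkm and Aldoa. None of them was called in edgeR, where 0% of all genes were called in each class, or in DESeq2, where 21, 3 and 0 genes were called. At an unadjusted p under 0.05 stood 895 of 12787 genes (7%) in tumor-like, 495 of 9375 (5.28%) in macrophage-like and 92 of 1568 (5.87%) in T/NK-like nuclei, and of the members Slc2a3 in tumor-like nuclei alone.

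Slc2a3 stood at 15.0 ± 2.13 CPM in KO and 10.3 ± 1.80 CPM in CO in tumor-like nuclei (SD, n = 3, on the scale of this fit). All KO libraries lay above all CO libraries, as for 12.7% of the genes tested, and the log2 fold change was 0.55 (SE 0.22, adjusted p = 0.586, edgeR). Pfkp had a log2 fold change of 0.54 (95% interval −0.17 to 1.25), with CO1 above KO1. Aldoa had a log2 fold change of −0.58 (95% interval −1.90 to 0.75) and Slc2a1 of −0.39 (95% interval −1.38 to 0.60), and for both genes KO1 lay at the level of CO1 or CO2. Hk1 was the most closely bounded, at −0.07 (95% interval −0.41 to 0.27), followed by Pfkm at 0.03 (95% interval −0.40 to 0.46). The log2 fold changes of Hk2 (−0.12), Pfkl (−0.13) and Pkm (−0.15) had 95% intervals from −1.06 to 0.82, −0.72 to 0.47 and −0.98 to 0.68. That of Hk3 was 0.81 with an interval from −1.16 to 2.78, the widest of the 10. Of the other pathway genes Pfkfb1 had the smallest p (log2 1.14, adjusted p = 0.586 in edgeR's quasi-likelihood test), followed by Pfkfb3 (log2 0.69) and Ldhb (log2 −0.61).

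In macrophage-like nuclei Hk2 stood at 97.0 ± 62.2 CPM in KO and 157 ± 32.0 CPM in CO, with log2 −0.63 (SE 0.38, adjusted p = 0.853, edgeR). KO1 lay among the CO libraries, and KO2 and KO3 lay below all of them. Slc2a3 had the reverse order, at 50.5 ± 23.3 CPM in KO and 31.2 ± 11.6 CPM in CO (log2 0.62, SE 0.42, adjusted p = 0.853, edgeR), again with KO1 among the CO libraries. Without KO1 both were called, Hk2 at log2 −1.28 (adjusted p = 0.00349, edgeR) and Slc2a3 at log2 0.95 (adjusted p = 0.0462, edgeR), beside 1650 of all 9285 genes tested, where none was called with KO1. Pfkp stood at 66.5 ± 8.46 CPM in KO and 50.2 ± 6.35 CPM in CO, without overlap, as for 11.5% of the genes tested, and was not called (log2 0.43, SE 0.23, adjusted p = 0.853, edgeR). Hk3 had a log2 fold change of 0.33 (95% interval −0.34 to 1.00) and Aldoa of −0.19 (95% interval −1.10 to 0.72). Slc2a1 (0.02), Hk1 (0.10), Pfkl (−0.08) and Pkm (−0.03) had log2 fold changes within 0.1 of 0, with 95% intervals whose lowest bound was −0.83 (Pfkl) and highest 0.86 (Slc2a1).

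**Figure D3:**
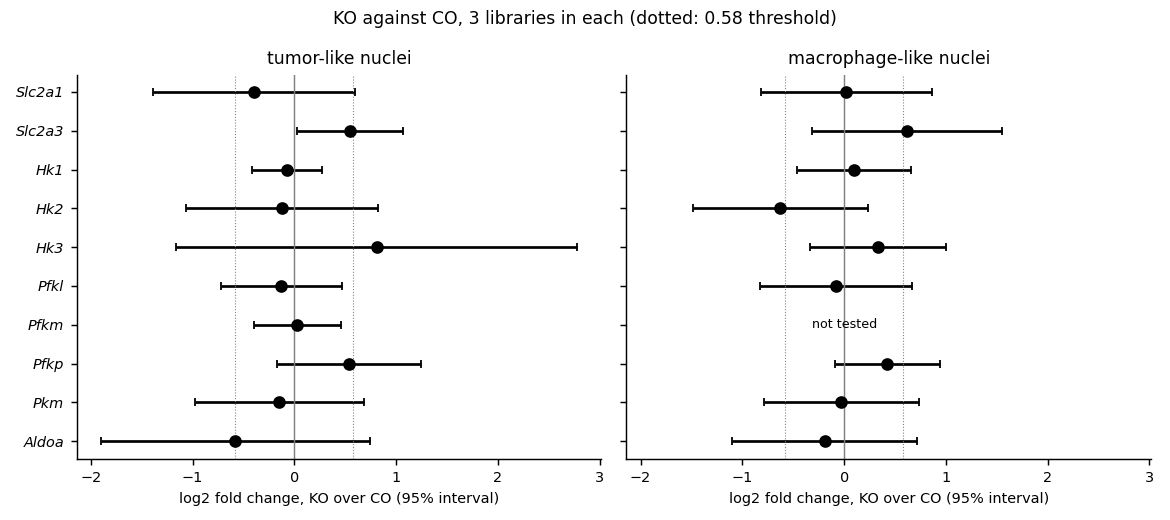
Log2 fold change of KO over CO (x axis) with its 95% interval for each gene tested (y axis) in tumor-like and macrophage-like nuclei, 3 libraries in each group. Every interval but that of Slc2a3 in tumor-like nuclei (0.03 to 1.06) includes 0, and none was past the adjusted threshold.

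The 7 isozyme ratios were also set against group in each class by an exact permutation test of 3 against 3 libraries, which cannot go below p = 0.1, and all 21 adjusted p were 0.7 or higher. The groups did not overlap in 3 of the 21 ratios, each at the smallest permutation p of 0.1. Chance alone separates 3 against 3 libraries at that rate. In macrophage-like nuclei the log2 ratio of Hk3 to Hk2 was 0.31 ± 0.71 in KO and −0.72 ± 0.27 in CO, and that of Pfkp to Pfkm 3.02 ± 0.10 in KO and 2.48 ± 0.52 in CO. In T/NK-like nuclei that of Slc2a3 to Slc2a1 was −1.15 ± 0.80 in KO and 0.71 ± 1.22 in CO. This ratio rested on 3 to 42 UMIs of each gene a library in KO and 1 to 9 in CO, with 1 Slc2a1 UMI in CO3. In T/NK-like nuclei Pkm (log2 −0.29, 95% interval −1.02 to 0.45) and Aldoa (log2 −0.39, 95% interval −1.26 to 0.47) were not called. The difference of KO against CO was also tested between macrophage-like and tumor-like nuclei, where 0.00805% of 12427 genes were called in edgeR and none of the 10 (926 genes or 7.45%, Hk2 among them, stood at an unadjusted p under 0.05, and DESeq2 called 5 genes). Hk2 had the smallest p, with a difference of −0.54 (SE 0.20, adjusted p = 0.551, edgeR). The differences of the others were −0.44 for Hk3, −0.25 for Pfkm, 0.39 for both Slc2a1 and Aldoa, 0.25 for Hk1, 0.10 for Pkm, 0.05 for Slc2a3 and Pfkl and 0.03 for Pfkp.

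Several of these levels moved with the ribosomal-protein share of the same sum, over the 6 libraries and 20 relations (10 genes in the tumor-like and macrophage-like class), by an exact permutation test. Hk2 had r = 0.95 (adjusted p = 0.05, rho = 0.77) in macrophage-like and r = 0.93 (adjusted p = 0.05, rho = 0.89) in tumor-like nuclei. Slc2a3 had r = −0.92 (adjusted p = 0.05, rho = −0.94) in macrophage-like nuclei and r = −0.38 (adjusted p = 0.559, rho = −0.26) in tumor-like nuclei. Aldoa had r = 0.94 (adjusted p = 0.05, rho = 0.94) in tumor-like and r = 0.91 (adjusted p = 0.05, rho = 0.94) in macrophage-like nuclei. Without the 2 libraries farthest from the median share, r was 0.996 for Hk2, −0.91 for Slc2a3 and 0.70 for Aldoa in macrophage-like nuclei, and 0.97 for both Hk2 and Aldoa in tumor-like nuclei. In macrophage-like nuclei KO2 and KO3 had both the lowest shares and the lowest Hk2, and with 3 libraries a group the part of the share in the differences between KO and CO was not tested. No adjusted p was under 0.05, and those given as 0.05 lay at the limit itself. Next came Pkm in macrophage-like (r = 0.89, adjusted p = 0.0556) and Slc2a1 in tumor-like nuclei (r = 0.92, adjusted p = 0.0992). By rho no relation reached 0.05 (adjusted p of 0.0833 or more).

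**Figure D4:**
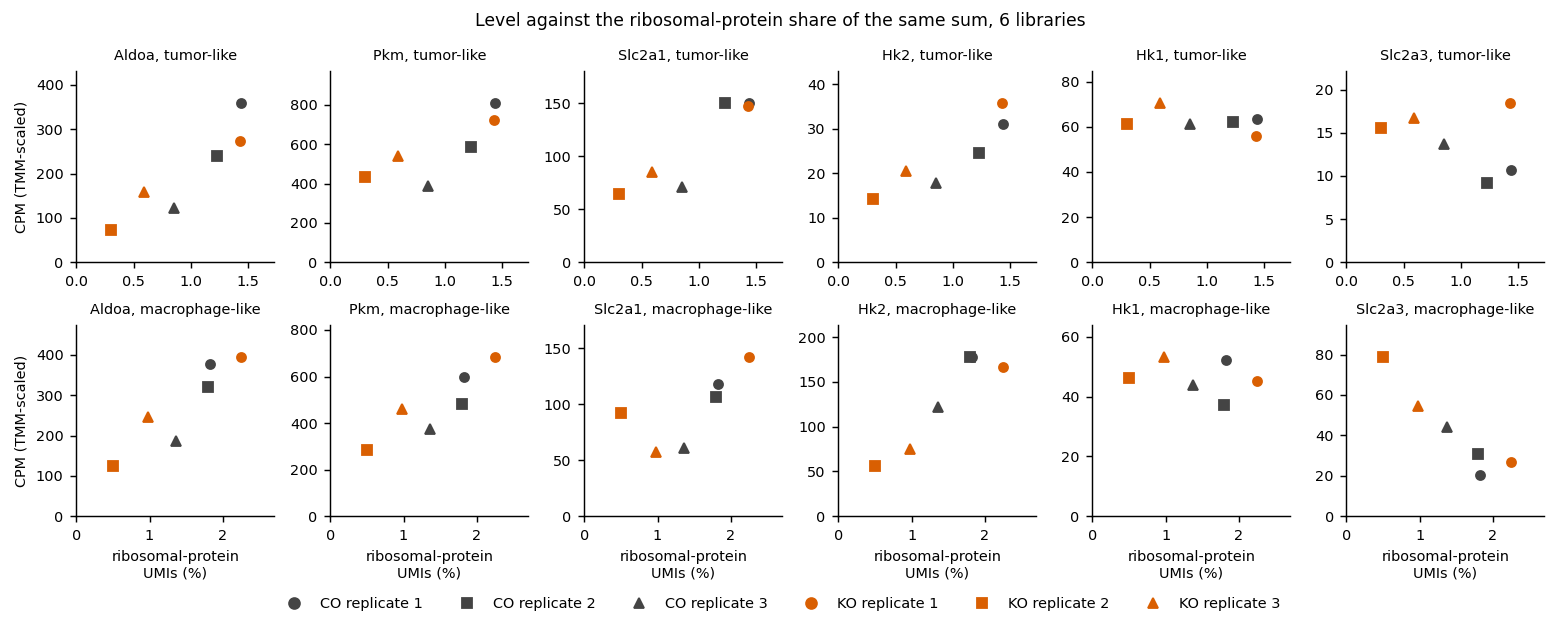
Level (y axis, CPM) against the share of ribosomal-protein UMIs in the same sum (x axis, %) for genes in tumor-like and macrophage-like nuclei, 1 point per library. In macrophage-like nuclei KO2, at 0.502%, has the lowest Hk2 and the highest Slc2a3.

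Nuclei of 1 class were last split by 13 hypoxia markers that hold none of the 10 genes, such as Vegfa, Car9 and Bnip3, after each nucleus was thinned to 1000 UMIs. Tumor-like nuclei with 2 or more marker UMIs held more Slc2a1, Pfkl and Pfkp than tumor-like nuclei of the same library with none, 3 of the 7 members that could be tested. Of all 8331 genes 0.3% were called, 0.288% as higher, and 12 of the 25 called were the split's own markers, so that 0.144% of the others were called higher. Slc2a1 stood at 213, 164 and 38.4 CPM in marker-high nuclei of CO1 to CO3 and at 209, 71.7 and 105 CPM in those of KO1 to KO3. In marker-free nuclei it stood at 105, 138 and 79.3 CPM in CO and at 124, 67.0 and 53.9 CPM in KO. It was higher in all libraries but CO3 (log2 0.60, SE 0.12, adjusted p = 0.000988, edgeR).

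Pfkl stood at 98.7, 100.4 and 95.9 CPM in marker-high nuclei of CO and at 90.2, 56.1 and 33.4 CPM in those of KO. The marker-free nuclei held 46.6, 61.5 and 39.6 CPM in CO and 59.9, 35.7 and 29.0 CPM in KO. It was higher in 6 of 6 libraries (log2 0.76, SE 0.17, adjusted p = 0.00338, edgeR). Pfkp was higher in 5 of 6, all but KO3 (62.3 ± 10.9 vs. 38.1 ± 22.8 CPM, log2 0.86, SE 0.20, adjusted p = 0.00786, edgeR). Pkm was higher in 6 of 6 libraries by a smaller factor (log2 0.41, SE 0.06, adjusted p = 5.95e-07, edgeR) that missed the size threshold. Hk2 (log2 0.68, adjusted p = 0.511) and Aldoa (log2 0.32, adjusted p = 0.082) were not called, nor was Hk1 (log2 0.06, 95% interval −0.28 to 0.41). None of the 3 calls was made without CO1 or with the stricter filter on nuclei. Under that filter the log2 fold changes were 1.16 for Pfkl, 0.68 for Slc2a1 and 0.25 for Pfkp. It left 57 of 600 marker-free tumor-like nuclei in CO1, and 4470 genes were tested. Slc2a1 also lost its call without KO1 (log2 0.52), without KO3 (log2 0.575), with 2000 UMIs (log2 0.52) and with no filter on low counts (log2 0.579), and in all of these but the first it missed only the size threshold. Pfkp lost its call without KO1 (adjusted p = 0.177), without KO2 (adjusted p = 0.0661) and at 3 marker UMIs (adjusted p = 0.257, edgeR), while Pfkl kept its call in these 3.

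**Figure D5:**
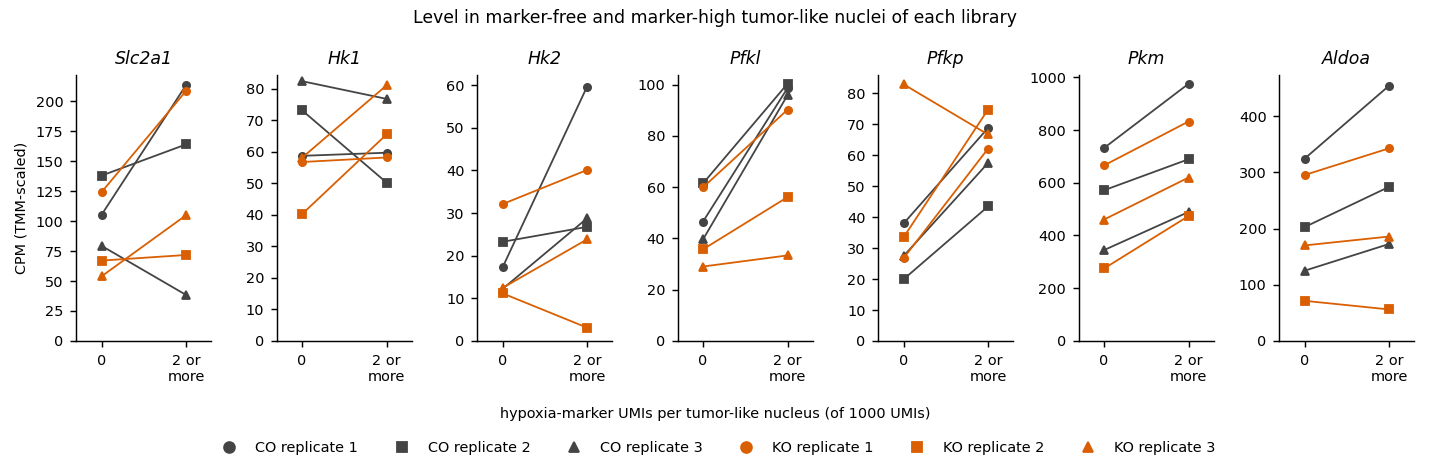
Level (y axis, CPM) in tumor-like nuclei with 0 and with 2 or more hypoxia-marker UMIs (x axis), 1 line per library. Pfkl rises in 6 of 6 libraries and Slc2a1 in all but CO3.

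In macrophage-like nuclei the same split moved Slc2a1 alone of 8 members tested (0.433% of 4854 genes called, 0.391% as higher, and 0.206% of those that are no marker). It stood at 161, 282 and 76.0 CPM in marker-high nuclei of CO and at 216, 164 and 58.3 CPM in those of KO, from 3 to 31 UMIs a library. The marker-free nuclei held 120.4, 89.2 and 57.5 CPM in CO and 108, 65.2 and 41.5 CPM in KO. Slc2a1 was higher in 6 of 6 libraries (log2 0.98, SE 0.25, adjusted p = 0.0184, edgeR), but the call was lost without CO2 (adjusted p = 0.467) or without KO1 (adjusted p = 0.389). Hk2 (log2 0.63, adjusted p = 0.261, edgeR) and Hk3 (log2 −0.53, adjusted p = 0.738, edgeR) were not called, nor were Hk1 (log2 0.62), Pfkp (log2 0.52), Slc2a3 (log2 0.13), Aldoa (log2 0.02) and Pkm (log2 −0.0045). A split of tumor-like nuclei by 12 cycling markers such as Top2a and Mki67 gave no call among 7 members, where 6.86% of 8449 genes were called in edgeR and 23.6% stood at an unadjusted p under 0.05 (DESeq2 was not run on the splits). Pkm was lower in cycling nuclei by log2 −0.20 (SE 0.07, adjusted p = 0.031, edgeR), under the size threshold, and at an unadjusted p under 0.05 it was the only member. The others lay between −0.31 (Pfkl) and −0.02 (Pfkp), with Hk2 at −0.30, Slc2a1 at −0.21, Aldoa at −0.10 and Hk1 at −0.07. Of the other pathway genes Slc2a8 (log2 0.99) and Pfkfb1 (log2 0.95) were higher in cycling nuclei.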

How the data were processed

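Single-nucleus RNA libraries (10x Genomics 3′ chemistry) of frozen tumors gave 1 matrix per library, whose values are UMI counts per gene and barcode that the authors deposited without normalization. Per the labels Cell Ranger 3.0.2 and GRCm38 were used, while the file headers name Cell Ranger 3.1.0. The study's methods add SoupX for ambient RNA, but the deposited counts are whole numbers and no correction can be seen in them. Whether reads in introns were counted is not given in the sources used here. Seurat 5.2.1 is named for later steps that were not used here.

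Nuclei with 100 to 7500 genes and under 20% mitochondrial UMIs were kept (18014 of 18865). Scrublet scores (scanpy 1.11.5) removed 521 as doublets, the top 0.8% per 1000 barcodes of each library, since its automatic threshold marked 11. Classes were set by markers that hold none of the 10 genes. Macrophage-like nuclei had at least 3 macrophage-marker UMIs and T/NK-like nuclei at least 2 T/NK-marker UMIs, from 2 genes. Tumor-like nuclei had a tumor-marker density of at least 0.5 of the library's reference. Macrophage-like and T/NK-like nuclei were held below that density, so they were not free of tumor markers. Other markers foreign to a class were limited by UMIs and density but not excluded. These rules left 4879 nuclei unassigned (21.3 to 40.1% of a library). Mertk, Igf2bp3, Pdgfra, Pecam1 and Zbtb46 were dropped from the marker lists after their levels were seen.

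Counts were summed per class and library and tested with edgeR 4.0.16 (R 4.3.3): TMM scaling, filterByExpr, the quasi-likelihood test and Benjamini-Hochberg adjustment over all genes. Pairs of classes and splits had the library as a block. DESeq2 1.42.0 was an alternative. Marker splits used nuclei thinned to 1000 UMIs; the threshold of 2 hypoxia-marker UMIs was set after the numbers of nuclei were seen. Ratios were log2 of UMI counts plus 0.5. Gene lengths came from GENCODE vM21, as merged exons. Scripts were tested on simulated data. No column of another sample was present.

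All 10 genes were named in every comparison in which they could be tested. Of 34 other pathway genes the text counts those called and names at most 6 by size of change, and at most 3 by p for KO against CO. For Slc2a1, Slc2a3, Hk2 and Hk3 it names the 3 most like genes. The genes and lists were chosen with earlier results of these data known. The labels' replicate numbers were not taken as pairs, since no shared litter or day is stated and deviations from the group means correlated at 0.51, −0.25 and 0.32 in tumor-like and 0.32, −0.23 and 0.26 in macrophage-like nuclei. Totals per library bound the precision: a count of 0 allowed up to 57.0 CPM in the smallest T/NK-like sum, for counting error only. Libraries of 1 group differed by more than sampling noise (chi-square per degree of freedom 6.82 to 180.2).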

Additional observations from a re-analysis of the deposited data

Results flagged for a closer look

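Of 30 groups of 6 libraries (10 genes in 3 classes), 3 held a library whose gap to its nearest neighbour was over 0.625 of the group's range, and chance alone gives about 1 in 20. Slc2a1 stood at 336 CPM in T/NK-like nuclei of KO1, from 42 UMIs, against 14.7 to 132 CPM in the other libraries, with a gap of 0.635 of the range. Pkm stood at 285 CPM in T/NK-like nuclei of KO2, from 15 UMIs in 31 nuclei, against 531 to 609 CPM in the others, with a gap of 0.759. Hk3 stood at 3.72 CPM in tumor-like nuclei of KO3, from 24 UMIs, against 0.377 to 1.54 CPM in the others, with a gap of 0.651. In the same library the macrophage markers used for the assignment stood in tumor-like nuclei at 2.38% of their macrophage-like level, the highest of the 6, and their part in the Hk3 value was not tested.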

How the results depend on the processing

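The alternatives were another tool (DESeq2), RLE factors, no filter on low counts, stricter marker and nucleus rules, no doublet removal, thinned nuclei, another ratio pseudocount, the replicate number as a block and each library left out. Leaving out KO2 and KO3 together and the threshold of 3 hypoxia-marker UMIs were chosen after seeing the data. T/NK-like against tumor-like nuclei gave 3 calls in place of 5 with nuclei thinned to 1000 UMIs. T/NK-like against macrophage-like gave 4 in place of 5 under the same thinning. The hypoxia split of tumor-like nuclei gave 0 calls in place of 3 with the stricter nucleus filter. That of macrophage-like nuclei gave 0 in place of 1 without a filter on low counts and with 3 marker UMIs. It also gave 0 with 2000 UMIs, where Slc2a1 was too low to test. With each library left out the calls were 0 to 2 for KO against CO in macrophage-like nuclei, 3 to 5 for T/NK-like against tumor-like, 4 to 6 for macrophage-like against tumor-like, 4 to 5 for T/NK-like against macrophage-like, 0 to 3 and 0 to 1 for the hypoxia splits of tumor-like and macrophage-like nuclei, and 0 elsewhere. Under the replicate block 0 members were called for KO against CO in each class, and 0, 0 and 3 genes in all, while tumor-like sums of KO2 correlated best with CO3, not with their own number. Slc2a3, Hk2 and Hk3 kept their calls between macrophage-like and tumor-like nuclei under every alternative run, and Pfkm under all but thinning, where it was too low to test. Hk1 (log2 −0.61) and Aldoa (log2 0.72) were also called there with the stricter nucleus filter, Pfkp (log2 0.67) without KO2 and KO3, and with 1 library left out Aldoa without CO1 or CO2 and Pfkp without CO2 or KO3. Without KO1, 2671 of 12946 genes were called for KO against CO in tumor-like nuclei, 1650 of 9285 in macrophage-like and 101 of 1746 in T/NK-like nuclei, against 0 with it. Depth limits the T/NK-like class most, where Hk3 and Pfkm had 0 to 3 UMIs a library.

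The values that turned sign, 123 in all, belonged to differences that were not called, at most 0.81 in size on the log2 scale, and the cause was not tested. Without KO2 and KO3, where the tumor markers used for the assignment stood highest in other classes, these were Hk2 −0.044 and Pfkl 0.051 (T/NK-like against tumor-like). With DESeq2 these were Pfkl 0.033 (T/NK-like against tumor-like), Pfkl −0.020 and Pfkp −0.11 (KO against CO between classes). With RLE factors these were Pfkl 0.040 (T/NK-like against tumor-like), Slc2a3 −0.037, Pfkl −0.035, Pfkp −0.067 (KO against CO between classes), Pkm 0.012 (hypoxia split of macrophage-like). With 3 in place of 2 hypoxia-marker UMIs these were Pkm 0.12 (hypoxia split of macrophage-like). With no filter on low counts these were Hk2 −0.050 (T/NK-like against tumor-like), Slc2a3 −0.11, Pfkl −0.10, Pfkp −0.16, Pkm −0.078 (KO against CO between classes), Aldoa −0.048 (hypoxia split of macrophage-like). With a ratio pseudocount of 0.1 these were Pfkm/Pfkl −0.16 (T/NK-like minus macrophage-like). With the replicate number as a block these were Slc2a1 −0.011 (KO against CO in macrophage-like). With a stricter marker rule these were Slc2a1 −0.015, Pfkl 0.036, Pkm 0.036 (KO against CO in macrophage-like), Pfkl 0.054 (T/NK-like against tumor-like), Slc2a3 −0.066 and Pfkp −0.040 (KO against CO between classes), Pfkp/Pfkm −0.031 (T/NK-like minus macrophage-like), Pfkm/Pfkl 0.12 (KO minus CO in macrophage-like), Hk2/Hk1 −0.51 and Pfkp/Pfkm −0.24 (KO minus CO in T/NK-like). With a stricter nucleus filter these were Pfkm −0.24 and Pkm 0.020 (KO against CO in tumor-like), Slc2a1 −0.0094 (KO against CO in macrophage-like), Hk2 −0.17 (T/NK-like against tumor-like), Pfkl −0.071 (T/NK-like against macrophage-like), Aldoa −0.025 (hypoxia split of macrophage-like), Aldoa 0.18 (cycling split of tumor-like). With nuclei thinned to 1000 UMIs these were Pfkm −0.26 (KO against CO in tumor-like), Slc2a1 −0.082 (KO against CO in macrophage-like), Pfkl 0.18 (T/NK-like against tumor-like), Pkm −0.20 (T/NK-like against macrophage-like), Hk2/Hk1 0.0088 (T/NK-like minus tumor-like), Pfkm/Pfkl −0.070 (KO minus CO in tumor-like), Hk3/Hk1 −0.10 (KO minus CO in macrophage-like), Hk2/Hk1 −0.14 and Pfkm/Pfkl −0.18 (KO minus CO in T/NK-like). With nuclei thinned to 2000 UMIs these were Hk1 −0.022 (hypoxia split of tumor-like), Pfkl 0.059 (cycling split of tumor-like).

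Leaving out 1 library at a time, the ranges of the log2 values that turned sign were these. In KO against CO in macrophage-like they were Aldoa −0.65 to 0.11, Hk1 −0.018 to 0.23, Pfkl −0.48 to 0.18, Pkm −0.40 to 0.23, Slc2a1 −0.55 to 0.33. In hypoxia split of macrophage-like they were Aldoa −0.16 to 0.17, Pkm −0.14 to 0.10, Slc2a3 −0.060 to 0.31. In cycling split of tumor-like they were Hk1 −0.15 to 0.021, Pfkp −0.37 to 0.16. In hypoxia split of tumor-like they were Hk1 −0.039 to 0.19. In KO against CO in tumor-like they were Hk2 −0.65 to 0.16, Hk3 −0.30 to 1.32, Pfkl −0.33 to 0.055, Pfkm −0.078 to 0.093, Pkm −0.42 to 0.17. In T/NK-like against tumor-like they were Hk2 −0.35 to 0.33, Pfkl −0.20 to 0.13, Pkm −0.23 to 0.0017, Slc2a1 −0.10 to 0.50. In KO minus CO in T/NK-like they were Hk2/Hk1 −0.061 to 0.94, Pfkm/Pfkl −0.86 to 1.10, Pfkp/Pfkm −0.66 to 1.48. In KO minus CO in tumor-like they were Hk2/Hk1 −0.56 to 0.17, Hk3/Hk1 −0.35 to 1.13, Hk3/Hk2 −0.36 to 1.15, Pfkm/Pfkl −0.024 to 0.43. In T/NK-like minus tumor-like they were Hk2/Hk1 −0.69 to 0.0013. In KO against CO between classes they were Hk3 −0.996 to 0.27, Pfkl −0.14 to 0.26, Pfkm −0.59 to 0.20, Pfkp −0.15 to 0.12, Pkm −0.017 to 0.072, Slc2a3 −0.40 to 0.64. In KO minus CO in macrophage-like they were Hk3/Hk1 −0.081 to 0.45, Pfkm/Pfkl −0.33 to 0.15. In T/NK-like against macrophage-like they were Pfkl −0.014 to 0.40, Pfkm −0.21 to 0.81. In T/NK-like minus macrophage-like they were Pfkp/Pfkm −0.29 to 0.53.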
